A study of Mus musculus with 8 samples.

Results

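A set of 10 genes coding for transcription factors of the dermal and mesenchymal lineage, Twist1, Twist2, Prrx1, Prrx2, Tbx15, Tbx18, En1, Runx1, Tcf4 and Foxp1, was followed in sorted dermal fibroblasts of mice treated on the back skin with a PPARG antagonist. Every probe set annotated to exactly 1 of these symbols was taken, which gave 29 probe sets for the 10 genes, of 45037 probe sets tested and 17097 genes measured. The treated mice received GW9662, which blocks the lipid-sensing nuclear receptor PPARG by binding it covalently, at 150 nmol in 300 µl acetone (4 animals). The vehicle mice received the same volume of acetone alone (4 animals). In both groups application began at 12 months of age and went on 3 times a week for 6 months, and strain and sex are not given in the sources used here. Each animal gave 1 array, and the cells of both groups had been sorted from collagenase-digested skin without its subdermis by the presence of Pdgfra and CD34 and the absence of EpCam, CD31, CD24, CD117 and CD45. The sort gate sets the cells compared, so a change in how many fibroblasts of a kind pass it and a change in RNA per cell cannot be told apart.

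These factors help to make and keep the identity of connective tissue cells. Twist1 and Twist2 are basic helix-loop-helix factors that bind E boxes (CANNTG) as dimers with E proteins, of which Tcf4 (also called E2-2, and not the Wnt effector Tcf7l2 that was long known by the same name) is one. Prrx1 and Prrx2 are paired-related homeobox factors of embryonic mesenchyme, Tbx15 and Tbx18 are related T-box factors, with Tbx15 known in mice for its part in patterning dorsal skin, and En1 marks in its embryonic history a lineage of dorsal dermal fibroblasts. Runx1 binds DNA as a dimer with Cbfb and is best known from blood, and Foxp1 is a forkhead repressor.

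Values are log2 signal intensities. The array median was 4.63 to 4.69 in the 8 samples. How bright a probe set is depends on its probes as well as on the transcript, and no detection calls were used, so levels of different probe sets are not amounts that can be ranked. Vehicle 4 stood apart on the first principal component over genes (22.2, against -10.4 to 5.49 in the other 7 samples). Leaving it out moved the log2 fold change by over 1.5 times in 17 of the 29 probe sets described below, and leaving out 1 of the 8 samples did so in 27 of 29. Of the genes of the sort gate, Cd34 averaged 10.72 ± 0.04 in GW9662 and 10.72 ± 0.15 in vehicle (SD, n = 4 each). Pdgfra, by its brightest probe set, averaged only 4.96 ± 0.17 in GW9662 and 4.86 ± 0.23 in vehicle, near the array median, while the group means of the fibroblast genes Col1a1, Col3a1 and Dcn lay between 12.09 and 12.64. Of the genes sorted against, Ptprc (CD45) averaged 2.89 in GW9662 and 2.90 in vehicle, Kit 3.13 and 3.08, Cd24a 3.53 and 3.55, Pecam1 4.99 and 4.87, and Epcam 4.00 and 3.85 in the same order of groups, with a mean over these 5 genes of 3.71 ± 0.10 and 3.65 ± 0.06. Pparg, the gene of the inhibited receptor, averaged 4.85 ± 0.27 in GW9662 and 4.88 ± 0.23 in vehicle.

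No probe set of the 10 genes passed the test between GW9662 and vehicle. In limma, 0 of the 29 probe sets had a Benjamini-Hochberg adjusted p under 0.05 (adjusted p = 0.997 for each), and 0 (0%) of all 45037 probe sets did. With an unadjusted p below 0.05 there was 1 of 29, a dim Foxp1 probe set, against 3.55% of all probe sets. The groups did not overlap in 2 of 29, against 1.9% of all. Differences over 0.2 on the log2 scale were found in 3 of 29, against 4.81% of all, and all of them belonged to Foxp1 or Runx1. The difference had the same sign in all 4 pairs of same-numbered animals in 4 of 29 probe sets, against 11.1% of all. These 4 include the 2 without overlap, where the sign in every pair follows from the separation. The animals had been collected in same-day pairs, and same-numbered animals were read as these pairs, which the sample titles do not state. By any amount, 13 probe sets were higher and 16 lower in GW9662, with a median log2 fold change of -0.02, against -0.0025 over all probe sets. By the brightest probe set of each gene, 1 of the 10 genes (Foxp1) differed by over 0.2, against 4.71% of all genes. The groups did not overlap in 1 gene (Prrx1), against 1.75% of all genes. The same gene was the 1 with the same sign in all 4 pairs, against 11.4% of all genes.

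**Figure D1:**
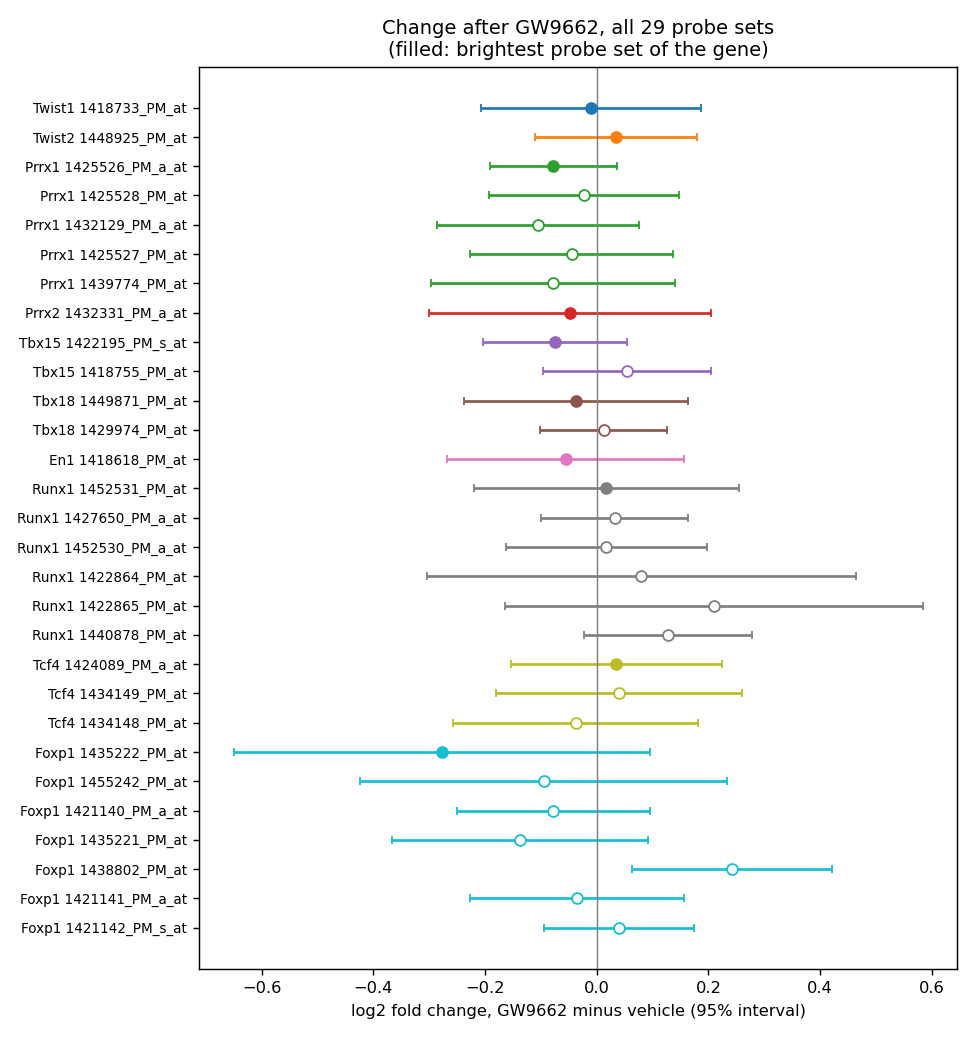
Log2 fold change, GW9662 minus vehicle, of all 29 probe sets of the 10 genes with the 95% interval of the limma fit (n = 4 per group); the filled point is the brightest probe set of a gene. The interval of 1 Foxp1 probe set, 1438802_PM_at, lies wholly above 0, and those of the other 28 include 0.

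Promoter sequences are shown for 3 of the genes whose values are described most closely: Twist1 and Prrx1, each with 1 RefSeq start site in the table used here, and Runx1, with 2. How the start sites bear on the probe sets was not tested. Each window is the 250 bases before a RefSeq start site (build GRCm38.p6), written 5′ to 3′ on the strand of the gene, with E boxes in capitals. The windows lie at chr12:33957421-33957670 on the plus strand for Twist1, chr1:163313651-163313900 on the minus strand for Prrx1, chr16:92826075-92826324 on the minus strand for the first Runx1 start and chr16:92697330-92697579 on the minus strand for the second.
Twist1: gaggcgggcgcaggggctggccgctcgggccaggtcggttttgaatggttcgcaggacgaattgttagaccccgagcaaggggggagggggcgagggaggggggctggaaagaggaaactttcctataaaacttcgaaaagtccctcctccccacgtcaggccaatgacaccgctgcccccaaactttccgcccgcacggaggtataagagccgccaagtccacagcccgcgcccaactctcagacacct
Prrx1: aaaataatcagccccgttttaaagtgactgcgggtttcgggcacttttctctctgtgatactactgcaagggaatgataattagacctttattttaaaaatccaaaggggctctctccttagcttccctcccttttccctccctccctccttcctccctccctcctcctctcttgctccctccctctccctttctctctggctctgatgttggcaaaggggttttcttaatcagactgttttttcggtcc
Runx1, first start: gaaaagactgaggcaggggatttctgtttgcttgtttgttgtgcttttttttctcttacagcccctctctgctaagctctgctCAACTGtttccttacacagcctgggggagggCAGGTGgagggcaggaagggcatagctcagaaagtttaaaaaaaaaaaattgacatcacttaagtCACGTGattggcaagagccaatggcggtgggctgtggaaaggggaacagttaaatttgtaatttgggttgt
Runx1, second start: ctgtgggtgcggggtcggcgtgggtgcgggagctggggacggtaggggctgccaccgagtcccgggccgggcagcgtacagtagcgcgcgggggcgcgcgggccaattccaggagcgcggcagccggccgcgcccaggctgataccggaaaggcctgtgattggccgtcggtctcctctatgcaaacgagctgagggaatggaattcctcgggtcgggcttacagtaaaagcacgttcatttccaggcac
The window of the first Runx1 start holds 3 E boxes, the runs in capitals. The windows of Twist1, of Prrx1 and of the second Runx1 start hold none, which says only that these letters are not there. CANNTG reads the same on both strands and occurs in 66.2% of 32851 such windows of all genes. It was in 6 of the 11 windows used here, which cover 8 of the 10 genes and leave out Tbx15 and Tcf4. The letters TGTGGT on either strand, the core that Runx factors bind, were in 0 of the 11 windows and in 14.0% of all. The 2 Runx1 starts lie 128745 bases apart. In GC content the second Runx1 window (67.6%) and that of Twist1 (62.4%) were above, and those of the first Runx1 start (45.6%) and of Prrx1 (47.6%) below, the median of all windows (52.4%).

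Twist1, on chromosome 12, is needed for cranial and limb mesenchyme in the mouse embryo and was measured by 1 probe set. It stood at 8.89, 8.99, 8.92 and 9.08 in GW9662 1 to 4, against 9.18, 9.02, 8.95 and 8.77 in vehicle 1 to 4. The vehicle values enclosed all 4 GW9662 values. The log2 fold change was -0.01 ± 0.09 (SE, n = 4 per group), with a 95% interval from -0.21 to 0.19. Its relative Twist2, also called Dermo1 for its expression in the dermis, lies on chromosome 1 and was likewise measured by 1 probe set. It stood at 8.46, 8.52, 8.70 and 8.62 in GW9662, against 8.53, 8.49, 8.57 and 8.57 in vehicle, so that GW9662 values fell on both sides of the narrow vehicle range. The log2 fold change was 0.04 ± 0.07, with an interval from -0.11 to 0.18.

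Tcf4, an E protein that can pair with both Twist factors, had 3 probe sets. The brightest (1424089_PM_a_at) stood at 8.95, 9.01, 9.23 and 8.97 in GW9662, against 8.94, 9.18, 9.0 and 8.90 in vehicle. The groups overlapped, with a log2 fold change of 0.04 ± 0.08. The other 2 probe sets gave 0.04 ± 0.10 and -0.04 ± 0.10, and across the 8 samples the 3 correlated with each other at Pearson r from 0.52 to 0.64. In 1434148_PM_at the value of GW9662 1 was 7.79, against 8.16 to 8.18 in the other 3 GW9662 samples.

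Prrx1, on chromosome 1, had 5 probe sets, which followed each other more closely than those of the other genes with several probe sets. Its brightest probe set (1425526_PM_a_at) stood at 11.24, 11.25, 11.18 and 11.24 in GW9662, against 11.34, 11.31, 11.27 and 11.30 in vehicle. All 4 GW9662 values lay below all 4 vehicle values, by a narrow margin. The log2 fold change was -0.08 ± 0.05 (SE), with a 95% interval from -0.19 to 0.04 (limma unadjusted p = 0.157, adjusted p = 0.997). The difference was thus also below 0 in 4 of 4 pairs, as it must be without overlap, at -0.10, -0.06, -0.09 and -0.06. The other 4 probe sets of Prrx1 had log2 fold changes of -0.02, -0.11, -0.05 and -0.08, and in each of them the groups overlapped. In these 4 probe sets vehicle 1 or vehicle 2 was the highest sample. Probe sets of 1 gene are not separate measurements of the animals, and the 10 pairs of them correlated at r from 0.53 to 0.96 (median 0.78). Prrx2, the relative of Prrx1 on chromosome 2, had 1 probe set, at 8.19, 8.06, 7.95 and 7.91 in GW9662 and 8.17, 8.13, 8.26 and 7.74 in vehicle. The lowest value was that of vehicle 4, and the log2 fold change was -0.05 ± 0.11.

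**Figure D2:**
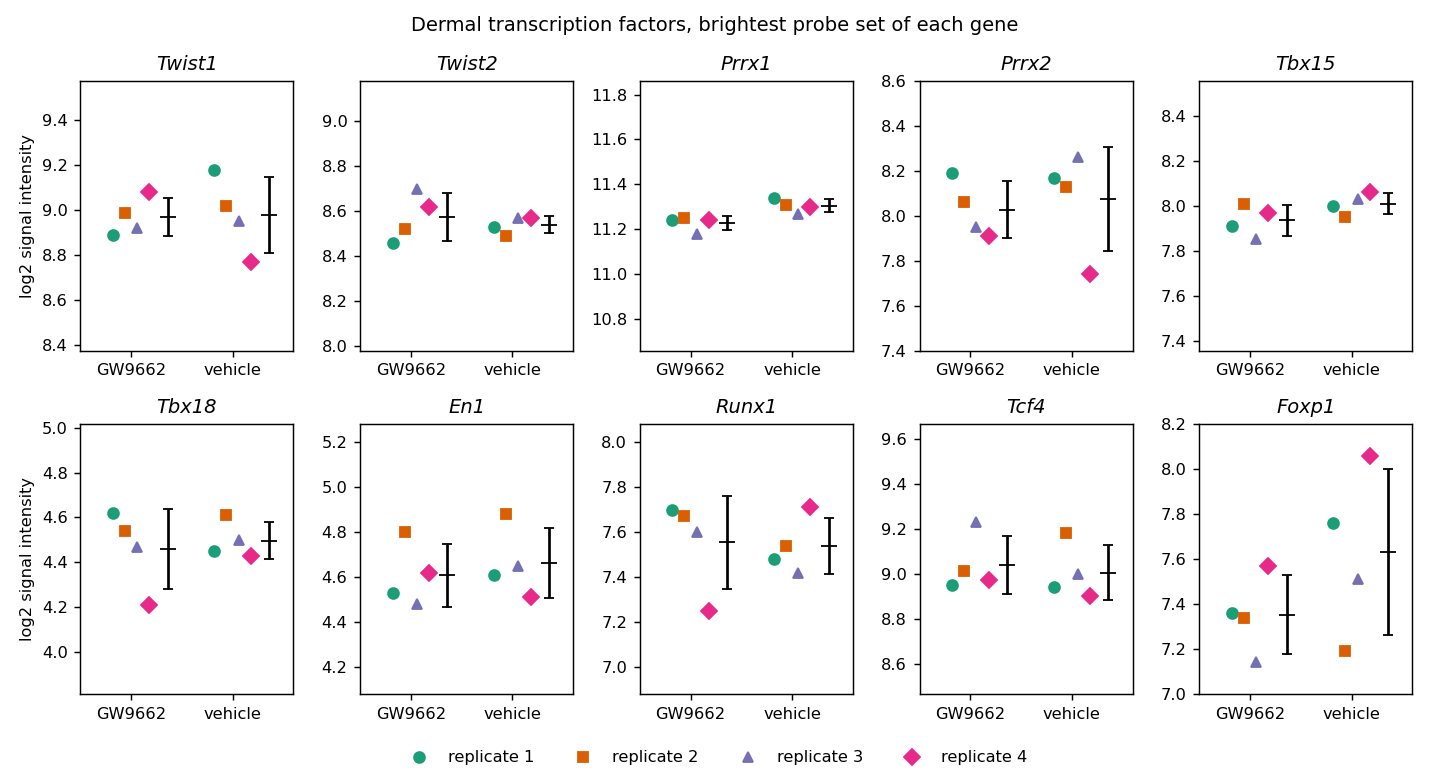
Log2 signal intensity of the brightest probe set of each of the 10 genes in the 4 GW9662 and the 4 vehicle samples, coloured by replicate number, with the group mean and SD as bars; each panel spans 1.2 log2 units around its own values. The groups separate for Prrx1, by a log2 fold change of -0.08, and overlap for the other 9 genes. Among all genes they separate in 1.75%.

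The T-box genes gave small differences of both signs. Tbx15, on chromosome 3, was measured at nearly the same brightness by 2 probe sets that gave opposite signs. In 1422195_PM_s_at it stood at 7.91, 8.01, 7.85 and 7.97 in GW9662, against 8.0, 7.95, 8.03 and 8.06 in vehicle, which gave -0.08 ± 0.06 (SE) as log2 fold change. In 1418755_PM_at it stood at 7.81, 7.84, 7.99 and 7.86 in GW9662, against 7.73, 7.77, 7.94 and 7.84 in vehicle, for a difference of 0.06 ± 0.07 and a higher GW9662 value in 4 of 4 pairs. The groups overlapped in both, and the 2 probe sets correlated at r = -0.30 over the 8 samples. A suffix of _s_at marks, in the maker's naming, probes that may be shared with other transcripts. Tbx18, on chromosome 9, known from the developing mouse heart, ureter and hair follicle dermis, was near the array median in its brighter probe set, at 4.62, 4.54, 4.47 and 4.21 in GW9662 and 4.45, 4.61, 4.50 and 4.43 in vehicle. GW9662 values lay both above and below the vehicle range, and the log2 fold change was -0.04 ± 0.09. Its dimmer probe set varied between 3.52 and 3.61 over all 8 samples.

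En1, on chromosome 1, likewise had a value close to the array median. Its 1 probe set stood at 4.53, 4.80, 4.48 and 4.62 in GW9662, against 4.61, 4.88, 4.65 and 4.51 in vehicle. Both groups had their highest value in the animal numbered 2, and the log2 fold change was -0.06 ± 0.10 (SE), with an interval from -0.27 to 0.16. At values this near the middle of the array, and without detection calls, whether En1 and Tbx18 were above background is not known.

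Runx1, on chromosome 16, had 6 probe sets, all with a higher mean in GW9662 by any amount and none past the test, where 21542 of all 45037 probe sets were higher. In 4 of the 6 the sign turned in at least 1 alternative processing or with 1 sample left out. The brightest (1452531_PM_at) stood at 7.70, 7.67, 7.60 and 7.25 in GW9662, against 7.48, 7.54, 7.42 and 7.71 in vehicle. The pair numbered 4 had the opposite sign to the other 3 pairs, and the log2 fold change was 0.02 ± 0.11 (SE). A second probe set of middle brightness (1427650_PM_a_at) stayed between 6.19 and 6.37 in all 8 samples. The largest difference was in a dim probe set (1422865_PM_at), at 3.97, 3.91, 4.69 and 4.05 in GW9662, against 3.81, 4.00, 4.20 and 3.77 in vehicle. GW9662 3 lay far above the other 7 samples. The log2 fold change was 0.21 ± 0.17, and 0.03 without GW9662 3. In 1440878_PM_at the log2 fold change was 0.13 ± 0.07 (limma unadjusted p = 0.0885, adjusted p = 0.997), with a higher value in 4 of 4 pairs, and 0.08 without GW9662 3.

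The 3 dimmest of the 6 Runx1 probe sets varied together, and the 3 brighter ones did not follow them. Of the dimmest 3, 1422864_PM_at averaged 4.87, above the array median. The other 2, 1422865_PM_at and 1440878_PM_at, averaged 4.05 and 3.93, below it. Among 1422864_PM_at, 1422865_PM_at and 1440878_PM_at the Pearson correlations over the 8 samples were 0.81, 0.71 and 0.85, and all 3 were highest in GW9662 3. Their Spearman correlations were lower, at 0.36, 0.55 and 0.62. The brightest probe set correlated with these 3 at 0.01, -0.13 and 0.04. Leukocytes also express Runx1. The mean of 12 leukocyte genes lay between 4.76 and 4.81 in GW9662 and between 4.78 and 4.85 in vehicle, at 4.79 in GW9662 3. Of these 12 genes 5 were above the array median. Ptprc was near the low end of the array in both groups, and its highest value of the 8 samples was in GW9662 3, at 3.01. Of the 10 marker lists, the dermal papilla list ran with the 3 dimmest probe sets over the 8 samples at r = 0.89, 0.64 and 0.54. The keratinocyte list ran against them, at r = -0.77, -0.88 and -0.87. For 1440878_PM_at the pericyte and smooth muscle list was closer than the dermal papilla list, at r = -0.60. The dermal papilla mean lay between 3.98 and 4.21 in GW9662 and between 4.02 and 4.16 in vehicle, highest in GW9662 3. Of its 5 measured genes 1 was above the array median. That gene, Vcan, varied most of the 5, from 6.73 in GW9662 4 to 7.61 in GW9662 3. The keratinocyte mean lay between 4.98 and 5.07 in GW9662 and between 5.01 and 5.08 in vehicle, lowest in GW9662 3, with 5 of 9 genes above the array median. The part of other cell types in the Runx1 values was not tested.

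Foxp1, on chromosome 6, had the widest differences of the 10 genes, in opposite directions by probe set. Its brightest probe set (1435222_PM_at) stood at 7.36, 7.34, 7.14 and 7.57 in GW9662, against 7.76, 7.19, 7.51 and 8.06 in vehicle. Vehicle 4 was the highest and GW9662 3 the lowest, and the groups overlapped through the low value of vehicle 2. The log2 fold change was -0.28 ± 0.17 (SE), with a 95% interval from -0.65 to 0.09 (limma unadjusted p = 0.128, adjusted p = 0.997). Without vehicle 2 it was -0.42, without vehicle 4 it was -0.13, without both animals numbered 4 it was -0.21, and with the mean of the 7 probe sets of the gene it was -0.05. With the replicate number as a block the unadjusted p was 0.0355 and the adjusted p 0.975 in limma. The second brightest probe set (1455242_PM_at), which correlated with the first at r = 0.72, gave -0.10 ± 0.15, and 0.0075 without vehicle 4.

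Marker lists moved with the brightest Foxp1 probe set, and also with probe sets of other genes described above. Over the 8 samples Prrx1 1425528_PM_at correlated at r = -0.94 with the endothelial list, and Twist2 at 0.84 with the genes sorted against. The brightest Foxp1 probe set correlated at r = -0.80 with the mean of the fibroblast genes and at 0.70 with the adipocyte list. It correlated at 0.62 with the leukocyte, 0.61 with the pericyte and smooth muscle and 0.60 with the keratinocyte list. For the second brightest Foxp1 probe set the values in this order were -0.74, 0.40, 0.60, 0.22 and 0.22. With the skeletal muscle list it correlated at 0.66, and the brightest at 0.37. For Foxp1 1435221_PM_at, also highest in vehicle 4, the values in the same order were -0.61, 0.91, 0.70, 0.07 and 0.40. In the remaining Foxp1 probe sets r with the adipocyte list ran from -0.25 to 0.37. The fibroblast mean lay between 10.28 and 10.39 in GW9662 and between 10.15 and 10.41 in vehicle, and the adipocyte mean between 4.06 and 4.15 in GW9662 and between 4.08 and 4.28 in vehicle. Vehicle 4 had the lowest fibroblast and the highest adipocyte and leukocyte means of the 8 samples. In vehicle 4 Retn stood at 5.64, against 5.16 to 5.38 in the other samples, and Lep at 3.99, against 3.84 to 3.92. Adipoq was at 3.20 in vehicle 4 and highest in vehicle 1, at 3.29. The correlations with marker lists were not recomputed without vehicle 4. All 10 fibroblast genes and 1 of the 3 measured adipocyte genes were above the array median, and the adipocyte gene Adipoq averaged 3.14 in GW9662 and 3.23 in vehicle. Their part in the Foxp1 values was not tested.

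A dim Foxp1 probe set gave a difference of the opposite sign. In 1438802_PM_at the values were 4.17, 4.08, 4.06 and 4.35 in GW9662, against 3.79, 3.90, 4.00 and 4.00 in vehicle. All 4 GW9662 values lay above all 4 vehicle values, which by itself makes the difference positive in 4 of 4 pairs. The log2 fold change was 0.24 ± 0.08 (SE), with an interval from 0.06 to 0.42 (limma unadjusted p = 0.0133, adjusted p = 0.997). It ranged from 0.18 to 0.28 when each sample was left out in turn. Its mean of 4.04 was below the array median, and it correlated with the brightest Foxp1 probe set at r = -0.15. Of the remaining 4 probe sets of the gene, 3 had log2 fold changes of -0.14, -0.08 and -0.04 and 1 of 0.04, with overlapping groups in each. The -0.14 was that of 1435221_PM_at, where vehicle 4 stood at 5.19, against 4.63 to 4.81 in GW9662 and 4.72 to 4.84 in the other vehicle samples, and it was -0.03 without vehicle 4. Over all 21 pairs of Foxp1 probe sets, r ranged from -0.58 to 0.72 with a median of 0.10. RefSeq gives Foxp1 3 start sites in the windows used here, the outermost 492695 bases apart, and which transcripts each probe set reads is not part of the tables used here.

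**Figure D3:**
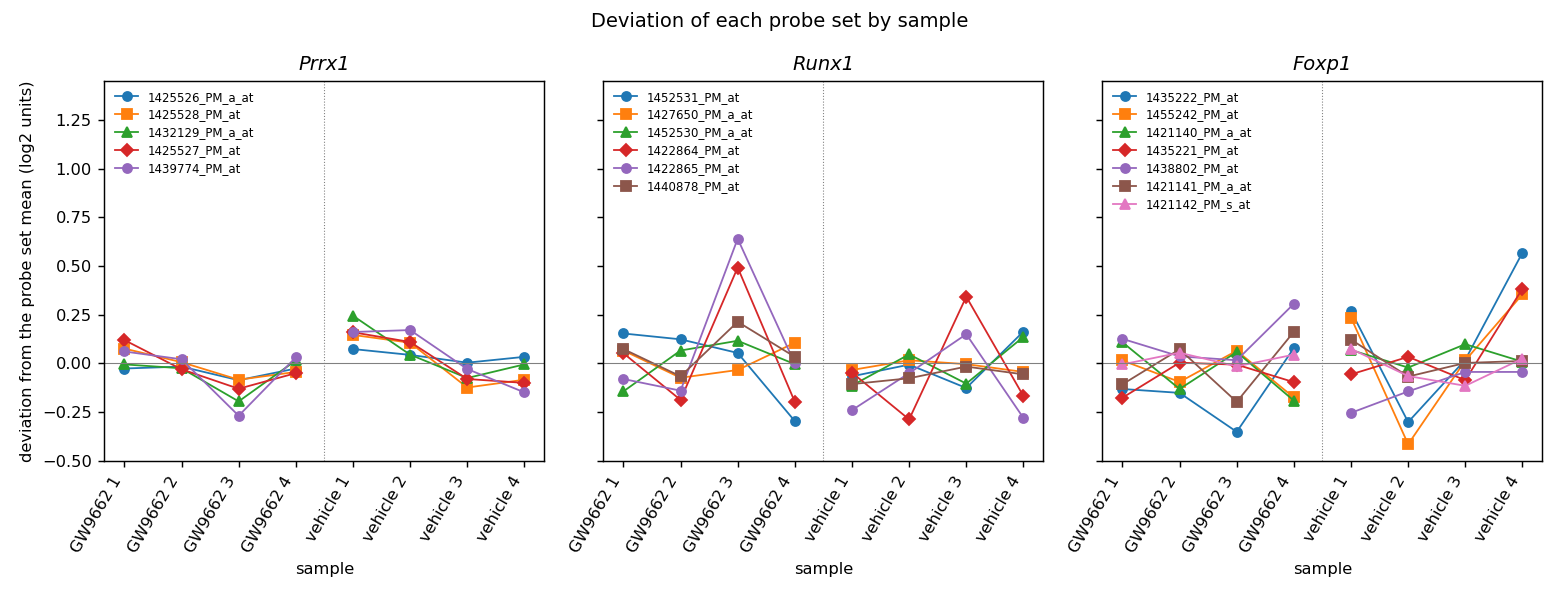
Deviation of each probe set of Prrx1, Runx1 and Foxp1 from its own mean over the 8 samples, in log2 units, by sample, with GW9662 samples left of the dotted line and vehicle samples right of it; lines join values of 1 probe set for legibility and replicates have no order. The 5 Prrx1 probe sets run together (median r = 0.78), while those of Runx1 (median r = 0.04) and Foxp1 (median r = 0.10) part.

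The stability of the 10 genes over all 8 samples differed from gene to gene and was, as a whole, close to that of other probe sets. The SD over the 8 samples ranged from 0.03 to 0.31 over the 29 probe sets, with a median of 0.12, against a median of 0.12 over all 28898 named probe sets. Since spread depends on brightness, each probe set was set beside all named probe sets with a mean within 0.5 log2 units of its own. In 13 of 29 the SD was below the midpoint of these probe sets of like level and in 16 above it. Among the steadiest were Tbx15, with SDs of 0.07 and 0.08 (5.61% and 12.0% of like probe sets had a smaller SD), Twist2 with 0.08 (8.83%) and the brightest Prrx1 probe set with 0.05 (15.1%). The Runx1 probe set 1427650_PM_a_at (2.67%) and the dimmer Tbx18 probe set (0.678%) were steadier still. Twist1 had an SD of 0.12 (44.2%), the brightest Tcf4 probe set 0.12 (40.7%), En1 0.14 (63.2%) and Prrx2 0.17 (68.1%). The widest were the Runx1 probe sets 1422865_PM_at at 0.29 (99.3%) and 1422864_PM_at at 0.28 (96.4%), and the brightest Foxp1 probe set at 0.31 (95.1%). These shares are descriptions.

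**Figure D4:**
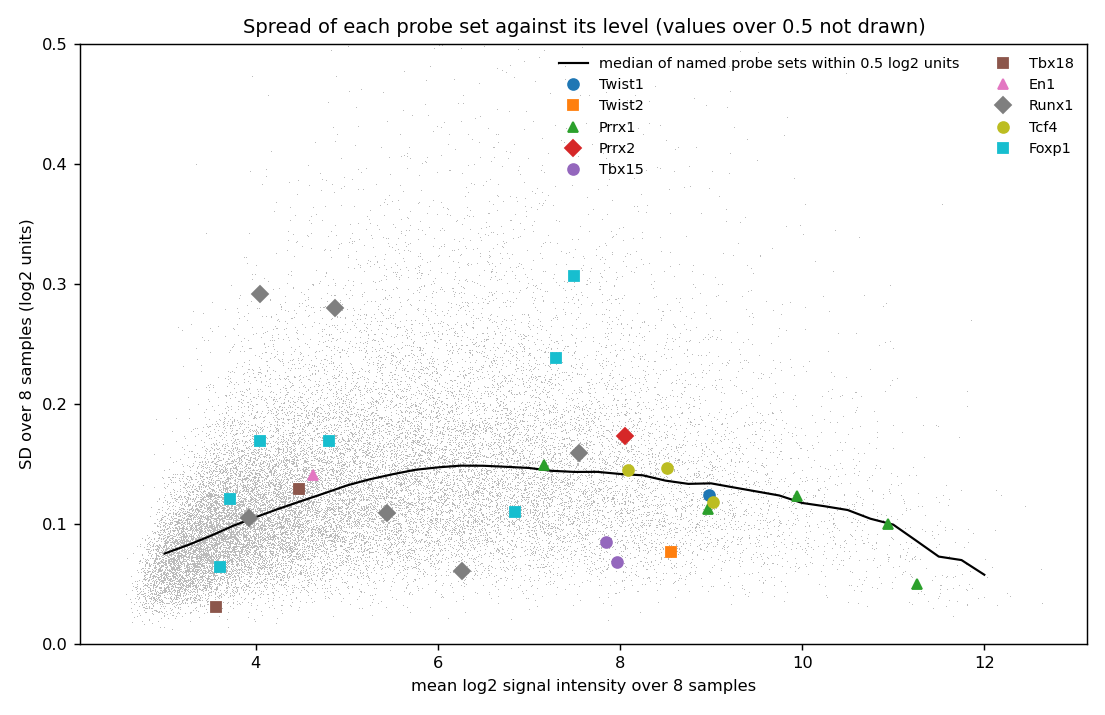
SD over the 8 samples against mean log2 signal intensity for all named probe sets (grey), with the 29 probe sets of the 10 genes marked by gene and the median of probe sets of like level as a line. Twist2 and Tbx15 lie below the line, the 2 brightest Foxp1 probe sets and 2 dim Runx1 probe sets above it.

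The 10 genes did not vary as 1 group across the animals. Between their brightest probe sets, the 45 Pearson correlations over 8 samples ranged from -0.81 to 0.76 with a median of -0.04, with 20 above and 25 below 0. Points in these correlations share the array normalisation and, if the replicate numbers mark the same-day pairs, the day of collection. No test was made. Tcf4 and Foxp1 ran most against each other, at r = -0.81 (Spearman -0.93, and r = -0.82 without vehicle 4), and Tbx15 and Foxp1 most alike with all 8 samples, at r = 0.76 (0.65 without vehicle 4). Without vehicle 4 the most alike were Tbx18 and Runx1, at 0.84 (0.69 with it), and Twist1 and Foxp1, at 0.72 (-0.15 with it). The relatives Twist1 and Twist2 correlated at -0.08 (-0.04 without vehicle 4), and Prrx1 and Prrx2 at 0.18 (0.57 without vehicle 4). Twist1 and Prrx2 correlated at 0.43, and at -0.10 without vehicle 4.

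Genes with the most similar pattern over the 8 samples were picked by Pearson r among the 17097 genes, and with so few samples 10 to 44 genes had r over 0.9 with each of the 10. For Twist1 they were Ap1g2 (0.99), Tceal8 (0.95) and Me2 (0.95), and for Twist2 Nebl (0.97), Krt33b (0.97) and Sox12 (0.95). Prrx1 had Mospd3 (0.99), Iqck (0.97) and Prdm16os (0.97), and Prrx2 had Csad (0.97), Elf4 (0.96) and Poldip2 (0.96). Tbx15 was nearest to Myo9a (0.98), Zfp687 (0.96) and Tepp (0.96), and Tbx18 to Polr2m (0.98), Casc3 (0.97) and Gm15886 (0.96). En1 ran with Slc35c1 (0.99), Tango2 (0.98) and Ndufs5-ps (0.98), and Runx1 with Stard6 (0.99), Odf2 (0.98) and Tctex1d4 (0.97). Foxp1 was nearest to Ly6g2 (0.96), Hspa1b (0.96) and 1600020E01Rik (0.96). Tcf4 had the fewest genes over 0.9, namely 10, and was nearest to Eid1 (0.95), Trps1 (0.94) and Mmp16 (0.92).

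Partners and relatives of the 10 factors were likewise without a gene past the test. Of 87 listed genes in 8 lists, 80 were measured, each by its brightest probe set, and 0 had an adjusted p under 0.05 in limma over all 17097 genes, of which 0 (0%) had one. Before adjustment, 4 of 80 had a p below 0.05, against 3.38% of all genes, and the groups did not overlap in 1 of 80, against 1.75% of all. By any amount 34 were higher and 45 lower, with a median log2 fold change of -0.02, against -0.005 over all genes. Of the 24 genes of these lists named below, 16 had a log2 fold change that moved by over 1.5 times with 1 sample left out, and 7 did so without vehicle 4.

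In the list of E protein partners and Id inhibitors, which compete with Twist factors for E proteins, 4 of 8 genes were higher and 4 lower (median 0.0075), with Tcf3 at -0.13 ± 0.07 (SE), Id1 at 0.13 ± 0.11 and Hand2 at -0.07 ± 0.09. Of the Runx family and its corepressors 4 of 6 measured genes were higher (median 0.10). Cbfb, the subunit that does not itself contact DNA but strengthens DNA binding by Runx1, stood at 6.90, 6.89, 7.13 and 6.88 in GW9662, against 6.57, 6.57, 7.04 and 6.41 in vehicle. Only vehicle 3 reached into the GW9662 range, and the log2 fold change was 0.30 ± 0.13 (limma unadjusted p = 0.0359, adjusted p = 0.997). Tle3, a Groucho-type corepressor, was at 0.17 ± 0.08 (0.05 as mean over probe sets) and Runx3 at 0.16 ± 0.12 (0.04 without GW9662 3, which stood at 6.52). Of other Fox factors of mesenchyme 7 of 9 measured genes were lower (median -0.11). Foxp2, a relative of Foxp1, was at -0.25 ± 0.10 (-0.12 as mean over probe sets). Foxf2 stood at 3.65, 3.62, 3.72 and 3.71 in GW9662, against 4.09, 3.96, 3.76 and 3.75 in vehicle, without overlap, for a log2 fold change of -0.22 ± 0.08 (limma unadjusted p = 0.0270, adjusted p = 0.997). Foxp4 was at -0.16 ± 0.08 (-0.09 without vehicle 4).

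Other T-box factors were lower in 5 of 9 (median -0.09), with Tbx6 at -0.15 ± 0.07 (SE), Tbx2 at -0.13 ± 0.07 and Tbx5 at -0.10 ± 0.08 (-0.04 without vehicle 4). Other homeobox factors of mesenchyme were higher in 7 and lower in 8 of 16 measured (median -0.01), with Pbx3 at -0.20 ± 0.08, Alx1 at -0.13 ± 0.07 and Msx1 at -0.13 ± 0.08. Snail, Zeb and Sox factors were higher in 5 of 9 (median 0.04), with Sox4 at -0.15 ± 0.12, Sox9 at 0.10 ± 0.11 and Zeb2 at 0.08 ± 0.10. Of the Lef and Tcf factors of Wnt signalling, 3 of 4 were measured, with Lef1 at 0.12 ± 0.06, Tcf7l1 at -0.13 ± 0.09 and Tcf7l2 at -0.12 ± 0.11 (0.19 as mean over probe sets). Of 20 other transcription factors of connective tissue, 13 were lower and 7 higher (median -0.04), with Nfix at -0.09 ± 0.07, Prdm1 at -0.10 ± 0.08 and Nr2f2 at 0.13 ± 0.11 (-0.005 as mean over probe sets).

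Marker lists of other cells of skin gave values close to each other in both groups. The mean of 9 measured keratinocyte genes was 5.02 ± 0.04 in GW9662 and 5.05 ± 0.03 in vehicle (SD, n = 4 each), of 8 endothelial genes 4.81 ± 0.12 and 4.84 ± 0.21, and of 12 leukocyte genes 4.78 ± 0.02 and 4.80 ± 0.04, in the same order of groups. The mean of 5 measured dermal papilla genes was 4.10 ± 0.09 in GW9662 and 4.08 ± 0.07 in vehicle, and Sox2, 1 of these 5, stood at 2.76 and 2.71. For 6 measured melanocyte and Schwann cell genes it was 4.69 ± 0.10 and 4.64 ± 0.08, for 8 pericyte and smooth muscle genes 4.95 ± 0.08 and 5.02 ± 0.07, for 7 skeletal muscle genes 3.94 ± 0.03 and 3.95 ± 0.04, and for 3 measured adipocyte genes 4.11 ± 0.04 and 4.17 ± 0.08, again with GW9662 first. The 10 fibroblast genes averaged 10.33 ± 0.05 in GW9662 and 10.29 ± 0.11 in vehicle. In the marker lists 1 gene had a limma p below 0.05 before adjustment, Tnnt3 of skeletal muscle, at 4.27 ± 0.10 in GW9662 and 4.48 ± 0.09 in vehicle.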

How the data were processed

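Per the labels' protocols, 5000 sorted cells per animal gave the RNA, which went through 21 amplification cycles, and each array (1 per animal) took 7.8 µg of labelled cDNA. The deposited values are log2 intensities, made with RMA and the affy package per the submitters' processing notes, without versions. Their range fits a base of 2, which no header states. Every column of values belonged to 1 of the 8 samples. Gene names came from the platform annotation, updated by RefSeq gene ID: 28898 had 1 gene, 551 had several and 15588 were unnamed here, and 104 control probe sets were left out.

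GW9662 minus vehicle was tested by limma 3.58.1 (R 4.3.3, functions lmFit and eBayes) without covariates or a filter on dim values, over all 45037 probe sets, and over 17097 genes by the probe set of highest mean, with two-sided tests, Benjamini-Hochberg adjustment and a threshold of 0.05. The procedure was tested on simulated data. Each sample is 1 animal, and their number limits the precision. The members and lists were chosen with earlier results of these data known. Named were all 29 probe sets, the 3 genes of highest r with each of the 10, the 3 genes of smallest unadjusted p in each list, the genes of the sort markers, and Pparg. Col1a1, Col3a1, Dcn, Sox2, Vcan, Adipoq, Lep, Retn and Tnnt3 were named from the marker lists after their values were seen.

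Animals were collected in same-day pairs, 1 per group, per the design text. Sample titles give only a number, and same-numbered animals were read as these pairs. Deviations from group means of same-numbered samples correlated across genes at 0.203, 0.163, 0.114 and 0.165. Differently numbered samples were not compared in this way, so these values do not settle whether the numbers mark the pairs. No 2 samples shared more than 3.04% of their values, so all 8 were counted. Promoter sequences are from RefSeq (GRCm38.p6), with windows used for 8 of the 10 genes. No window was used for Tbx15 or Tcf4, and windows on chromosome 18, where Tcf4 lies, were left out in the selection. Alternatives were the replicate block, trend and robust variances, brighter probe sets alone, 1 probe set or the mean of probe sets per gene, quantile normalisation, median centring, array weights, each sample left out, and pair 4 left out with and without the block.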

Additional observations from a re-analysis of the deposited data

Results flagged for a closer look

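In 3 of the 58 groups of 4 values (29 probe sets in 2 groups), 1 sample stood apart from the other 3 by more than Dixon's 95% critical value allows, where chance flags about 1 in 20. In the brightest Prrx1 probe set GW9662 3 was at 11.18, against 11.24 to 11.25 in the other GW9662 samples. In the Prrx1 probe set 1439774_PM_at the same sample was at 6.90, against 7.19 to 7.23. In the Tcf4 probe set 1434148_PM_at GW9662 1 was at 7.79, against 8.16 to 8.18.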

How the results depend on the processing

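In limma, 0 of the 29 probe sets (of the 10 genes, in the 2 alternatives fitted by gene) passed in any of the 18 alternatives, and the smallest adjusted p among these fits was 0.847. At an unadjusted p under 0.05 there were 0 to 3 of them, against 1 in the test as reported. The 1 of 29 stands beside 1597 of all 45037 probe sets. The 3 of 29 came without vehicle 2, where 2195 of 45037 had such a p. The 0 came with brighter probe sets alone (0 of 21, beside 716 of 22518) and in the fits by gene (0 of 10, beside 578 and 533 of 17097). Over all probe sets the count stayed at 0 in every alternative. Over all 17097 genes it was 1 with pair 4 left out and the replicate block, namely Col14a1 (limma adjusted p = 0.0396), named after its value was seen and not among the 10, and 0 in the other alternatives. With the replicate block on all 8 samples, 0 probe sets and 0 genes passed in limma, 2185 probe sets had an unadjusted p under 0.05, against 1597 without the block, and no call changed. Of 875 recomputed log2 fold changes, 41 turned their sign, and the other 834 kept it or, in a few, came to 0. Some of the 834 could not turn. The replicate block on all 8 samples, trend and robust variances, brighter probe sets alone and 1 probe set per gene leave the estimate unchanged. The tally is therefore partly fixed by the design. Of the 29 probe sets, 17 turned in at least 1 alternative. Without pair 4, with or without the replicate block, the sign turned for Tbx18 1449871_PM_at (0.023), Runx1 1427650_PM_a_at (-0.0067), Tcf4 1434149_PM_at (-0.057, and -0.013 with array weights) and Foxp1 1455242_PM_at (0.05). With the mean of probe sets it turned for Tcf7l2 (0.19) and Nr2f2 (-0.005). With 1 sample left out in turn, the log2 fold changes that turned ran from -0.08 to 0.057 for Twist1, -0.0067 to 0.073 for Twist2, -0.068 to 0.022 and -0.092 to 0.00083 for Prrx1 1425528_PM_at and 1425527_PM_at, -0.16 to 0.014 for Prrx2, -0.091 to 0.046 and -0.00083 to 0.023 for the brighter and the dimmer Tbx18 probe set, and -0.12 to 0.018 for En1. For Runx1 they ran from -0.031 to 0.12 in 1452531_PM_at, -0.018 to 0.068 in 1452530_PM_a_at and -0.071 to 0.21 in 1422864_PM_at. For Tcf4 they ran from -0.028 to 0.093 in 1424089_PM_a_at, -0.048 to 0.10 in 1434149_PM_at and -0.084 to 0.057 in 1434148_PM_at. They ran from -0.25 to 0.0075 in Foxp1 1455242_PM_at, -0.095 to 0.025 in Foxp1 1421141_PM_a_at and -0.11 to 0.016 for Hand2. The cause was not tested. Other level windows moved the share of like probe sets with a smaller SD by at most 4.03 percentage points. With brighter probe sets alone, 21 of the 29 were tested. Arrays give no detection calls here, so how far dim probe sets lie above background is not known, and 4 animals a group limit the precision.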
